A study of Mus musculus with 6 samples.

Results

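Expression of 10 genes of the epithelial-mesenchymal transition (EMT) was examined in mouse tailbud: the epithelial genes Cdh1 and Epcam, the cadherins Cdh2 and Cdh11, the transcription factors Snai1, Snai2, Zeb1, Zeb2 and Twist1, and the intermediate filament gene Vim. They were chosen by symbol from a table of 35591 rows, and all 10 were among the 13617 autosomal genes with enough reads to be tested. The libraries came from the tailbud, with its presomitic mesoderm, of single FVB/NJ embryos at 8 somites. The study compared 3 embryos that were Smchd1+/+ (WT) with 3 that were Smchd1MommeD43/MommeD43 (MommeD43). MommeD43 is a chemically induced missense allele of Smchd1, which encodes a chromatin silencing protein, and it is a germline allele that is not limited to one tissue. Replicate 1 of each genotype was a male embryo and the other replicates were females. The males shared a mother, whereas the 4 females had 4 different mothers. The line was made on this strain with a GFP reporter transgene, and the paper states that the transgene was bred out after mapping. The tissue was cut below the last somite, with whatever cell types lie there.

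During gastrulation, epithelial cells of the primitive streak lose their junctions and leave as mesenchymal mesoderm, and the tailbud carries this process on as the body axis extends. SNAIL and ZEB proteins are zinc finger repressors that bind the E-box sequence CAGGTG and silence E-cadherin (Cdh1). Presomitic mesoderm later becomes epithelial again when somites form. The cut was made so as to leave out the next somite, and the hindgut and surface ectoderm of this region are epithelia.

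The dissections were first read with marker lists. All 10 markers of presomitic mesoderm had reads in all 6 libraries, and their summed expression was 515.8 to 730.3 RPKM (reads per kilobase of exon, scaled to library size) in WT and 536.1 to 640.7 RPKM in MommeD43. Lists for tissues next to the tailbud were also present, and those of blood, yolk sac endoderm and trophoblast and decidua differed widely between single dissections. The 12 yolk sac markers summed to 167, 289.8 and 326 RPKM in WT replicates 1, 2 and 3 and to 503, 61.3 and 44.7 RPKM in MommeD43 replicates 1, 2 and 3. The 9 markers of primitive blood summed to 8.96, 486 and 205 RPKM in WT and to 25.5, 220.1 and 22.8 RPKM in MommeD43. The 8 trophoblast and decidua markers summed to 11.7, 1.65 and 8.99 RPKM in WT and to 17.3, 24.8 and 4.78 RPKM in MommeD43, and 3 of them had reads in all 6 libraries. Hindgut, surface ectoderm and neural tube lists, tissues that are themselves epithelial, stayed between 17.04 and 44.1 RPKM. Most of the neural tube sum was Sox2 (11.8 to 15.4 RPKM). The neural tube markers Sox1, Pax6, Nkx6-1, Olig2 and Pou3f2 were at 0.378 RPKM or less, so this sum says little about neural tube tissue. As these are bulk samples, fewer cells of a type and less RNA per cell cannot be told apart. Library totals ran from 10957916 to 47298348 reads.

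**Figure D1:**
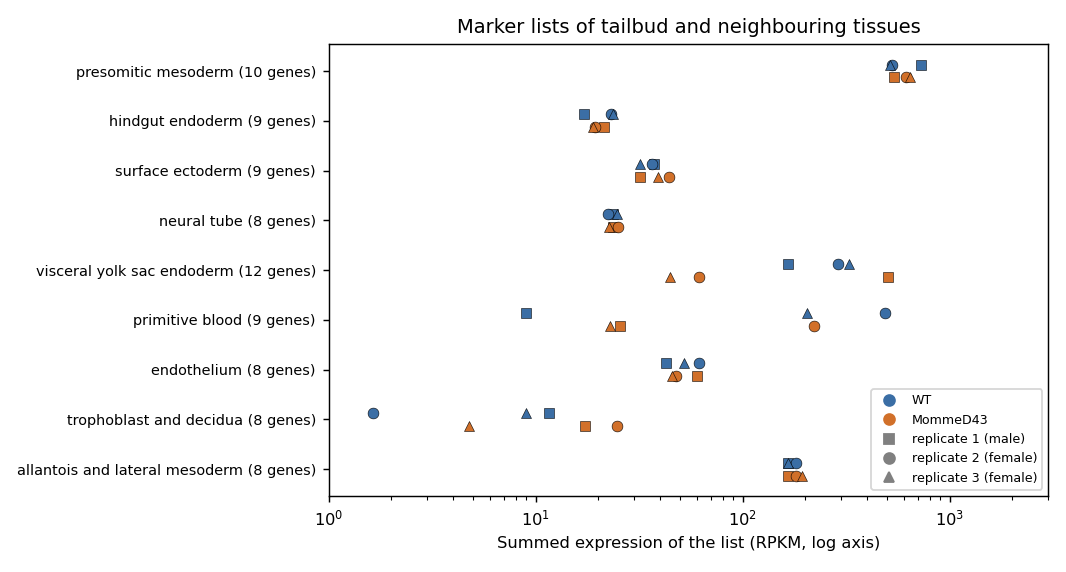
Summed expression (RPKM, log axis) of the marker lists in each library, blue for WT and orange for MommeD43, with squares for the males (replicate 1). Presomitic mesoderm stays between 516 and 730.3 RPKM, whereas blood runs from 8.96 to 486 RPKM.

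The question was whether MommeD43 alters the expression of genes that separate epithelial from mesenchymal cells. None of the 10 EMT genes was called different between the genotypes. By limma, 0 of 10 passed an adjusted p of 0.05 over all autosomal genes, as did 0% of the 13617 genes tested. At an unadjusted p under 0.05 there were 0 of the 10, against 2.4% of all genes (327), 1.42% with a higher and 0.977% with a lower level in MommeD43. In none of the 10 were the 3 MommeD43 values all on one side of the 3 WT values, which was the case for 7.08% of all genes (964), 3.53% with MommeD43 above WT and 3.55% with it below. In females alone 0 of the 10 genes passed the adjusted threshold, against 0.0734% of all genes. There 1 of the 10, Twist1, had an unadjusted p under 0.05 (0.0116, adjusted p = 0.524, limma), as did 1188 of all 13617 genes. The log2 fold change of MommeD43 against WT was above 0 for 6 genes and below 0 for 4, with a median of 0.02, beside 0.00 for all genes tested.

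The intervals show how large a change these libraries leave possible. The 95% interval of the fold change lay within 1.5-fold in either direction for 8 of the 10 genes and within 2-fold for all 10. Snai2 and Twist1 were the genes whose intervals went beyond 1.5-fold. The lowest bound of any gene was 0.632-fold and the highest 1.65-fold, both for Snai2.

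**Figure D2:**
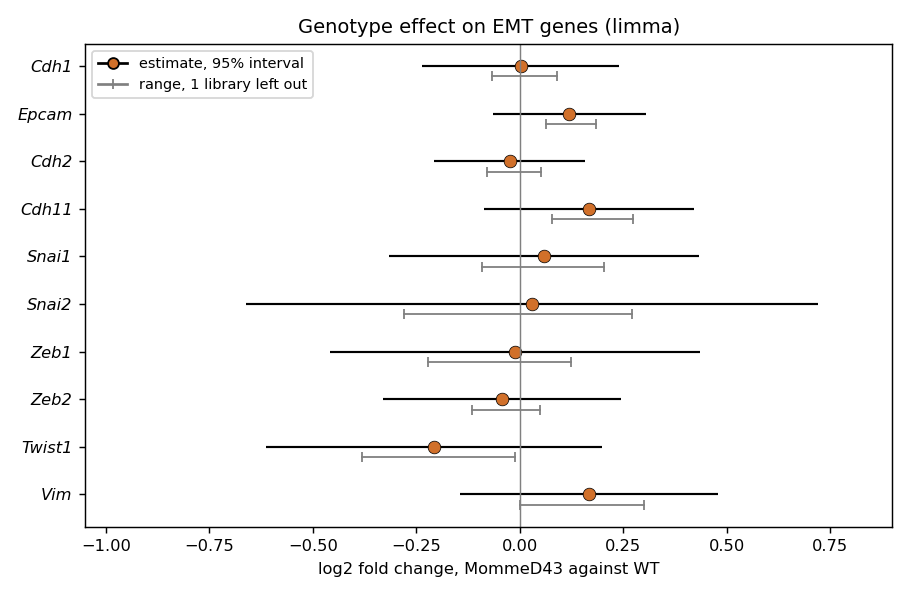
Log2 fold change of MommeD43 against WT for each EMT gene (points, limma), with 95% intervals (black lines) and the range when 1 library at a time was left out (grey bars). All 10 intervals include 0, and that of Snai2, from -0.66 to 0.72, is the widest.

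Cdh1 encodes E-cadherin, the adhesion molecule of epithelial junctions, and lies on the plus strand of chromosome 8 (106603351 to 106670246 on GRCm38). It was at 20.4, 17.5 and 16.4 RPKM in WT replicates 1, 2 and 3 and at 19.7, 16.03 and 18.6 RPKM in MommeD43 replicates 1, 2 and 3. The males were the highest of each group, and the groups overlapped over nearly their whole range. The means were 18.1 ± 2.05 RPKM in WT and 18.1 ± 1.87 RPKM in MommeD43 (SD, n = 3 each). MommeD43 minus WT was 0.00 ± 0.10 (SE) on the log2 scale, with a 95% interval of 0.849- to 1.18-fold and an adjusted p of 0.999 (limma).

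Epcam encodes a transmembrane glycoprotein of epithelial cells, and lies on chromosome 17 from 87635979 to 87651129. Its values were 21.7, 25.7 and 23.3 RPKM in WT and 26.98, 23.6 and 26.3 RPKM in MommeD43. WT replicate 1 was the lowest library and MommeD43 replicate 1 the highest, and both were male. MommeD43 differed from WT by a log2 fold change of 0.12 ± 0.08 (SE), with an interval of 0.956- to 1.24-fold (adjusted p = 0.999, limma). It stayed above 0 when any 1 library was left out, from 0.06 without WT replicate 1 to 0.18 without WT replicate 2.

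The promoters of an epithelial gene and of a repressor are shown for the E-box that SNAIL and ZEB proteins bind. RefSeq promoter windows on GRCm38.p6 were found for 5 of the 10 genes, Epcam, Snai1, Zeb2, Twist1 and Vim, and the 250 bases before the start were searched for CAGGTG on both strands (CACCTG being its reverse complement). Of all 32851 windows of this length, 17.2% held at least 1 match and 2.06% held 2 or more. Epcam held 2 matches, which begin 187 and 19 bases before the start, and Snai1 held 1, which begins 126 bases before it. The windows of Zeb2, Twist1 and Vim held none. The stretch of Epcam lies at chr17:87635729-87635978 and that of Snai1 at chr2:167537945-167538194, both on the plus strand. They are printed 5′ to 3′ with the E-boxes in capitals.
Epcam: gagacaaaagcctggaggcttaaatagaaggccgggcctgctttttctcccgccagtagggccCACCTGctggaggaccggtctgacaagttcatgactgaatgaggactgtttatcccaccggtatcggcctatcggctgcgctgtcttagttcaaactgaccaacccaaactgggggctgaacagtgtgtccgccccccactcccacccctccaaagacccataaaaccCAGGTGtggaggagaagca
Snai1: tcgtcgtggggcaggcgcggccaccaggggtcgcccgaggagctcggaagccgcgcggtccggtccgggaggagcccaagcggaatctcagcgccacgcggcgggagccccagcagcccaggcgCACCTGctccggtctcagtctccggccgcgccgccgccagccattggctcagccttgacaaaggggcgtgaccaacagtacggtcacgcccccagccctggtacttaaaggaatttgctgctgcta
A match is a run of letters and not a measured binding site.

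Cdh2 encodes N-cadherin, which replaces E-cadherin in many cells that undergo EMT, and is a minus-strand gene of chromosome 18 (16588877 to 16809246). It was at 20.7, 18.1 and 17.3 RPKM in WT replicates 1, 2 and 3 and at 18.2, 19.2 and 17.6 RPKM in MommeD43 replicates 1, 2 and 3. This was the most even of the 10 genes across libraries, with the highest library 1.199 times the lowest. The means were 18.7 ± 1.78 and 18.3 ± 0.814 RPKM (SD, n = 3 each), which gave a log2 difference of -0.03 ± 0.08 (SE), with an interval of 0.866- to 1.12-fold (adjusted p = 0.999, limma).

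Cdh11 encodes a type II cadherin of mesenchymal cells, and is a minus-strand gene of chromosome 8 (102632095 to 102785642). Its values were 9.01, 10.7 and 8.16 RPKM in WT and 9.71, 11.3 and 10.2 RPKM in MommeD43. All 3 MommeD43 values lay above those of WT replicates 1 and 3, but 2 of them lay below WT replicate 2. On the log2 scale the groups differed by 0.17 ± 0.11 (SE), with an interval of 0.941- to 1.34-fold (adjusted p = 0.999, limma), and it was between 0.08 and 0.27 when 1 library was left out.

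The exchange of E-cadherin for N-cadherin was read as the log2 ratio of Cdh2 to Cdh1 within a library. The ratio was 0.02, 0.05 and 0.07 in WT replicates 1, 2 and 3 and -0.11, 0.26 and -0.08 in MommeD43 replicates 1, 2 and 3. Both cadherin genes were thus expressed at near equal level per exon length in every library, and MommeD43 libraries lay on both sides of the WT libraries, above them through replicate 2 alone. Without MommeD43 replicate 2, the library that stood apart, the difference was -0.15 and the groups did not overlap. The remaining MommeD43 values lay below WT, so leaving out the only one above it was bound to separate the groups. No conclusion is drawn from that separation. How often the groups separate over all genes in such a split of 3 against 2 libraries was not computed. With all libraries the means were 0.05 ± 0.03 in WT and 0.02 ± 0.21 in MommeD43 (SD, n = 3 each). For Vim against Epcam, a mesenchymal against an epithelial gene, the means were 0.77 ± 0.19 and 0.82 ± 0.07 on the same scale.

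Snai1 encodes the SNAIL repressor, which is needed for mesoderm cells to leave the primitive streak. The gene lies on chromosome 2 from 167538195 to 167542814. It was at 28.6, 18.99 and 23.6 RPKM in WT and at 29.1, 20.6 and 24.04 RPKM in MommeD43. The males were highest in both groups, replicate 2 was lowest in both, and the genotypes covered almost the same range. MommeD43 minus WT was 0.06 ± 0.16 (SE) on the log2 scale, with an interval of 0.803- to 1.35-fold (adjusted p = 0.999, limma).

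Snai2 encodes SLUG, the close relative of SNAIL that is best known from neural crest, and lies on chromosome 16 from 14705852 to 14709385. It was at 2.89, 5.70 and 5.33 RPKM in WT replicates 1, 2 and 3 and at 4.61, 6.24 and 3.25 RPKM in MommeD43 replicates 1, 2 and 3. WT replicate 1 and MommeD43 replicate 3 were low, and the highest library held 2.16 times the lowest, the widest range of the 10 genes. Counting error does not cover this range: WT replicate 1 held 214 reads, with an exact 95% Poisson interval of 2.52 to 3.31 RPKM, and MommeD43 replicate 2 held 596 reads, with an interval of 5.74 to 6.76 RPKM. Such intervals hold the error of counting alone. For genotype the log2 difference was 0.03 ± 0.30 (SE, limma adjusted p = 0.999), which went from -0.28 without WT replicate 1 to 0.27 without MommeD43 replicate 3.

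Zeb1, which encodes a zinc finger and homeodomain repressor of E-cadherin, lies on chromosome 18 from 5591860 to 5775467. It was at 3.14, 5.07 and 4.65 RPKM in WT and at 4.61, 4.48 and 3.48 RPKM in MommeD43. The libraries that were low were those low for Snai2, WT replicate 1 and MommeD43 replicate 3. Between genotypes the log2 difference was -0.01 ± 0.19 (SE), with an interval of 0.728- to 1.35-fold (adjusted p = 0.999, limma).

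Zeb2, the paralogue of Zeb1, is a minus-strand gene of chromosome 2 (44983632 to 45117395). It was at 2.78, 2.72 and 2.65 RPKM in WT and at 2.92, 2.70 and 2.32 RPKM in MommeD43. MommeD43 replicates 1 and 3 were the highest and the lowest of all 6 libraries, and the WT values lay between them. MommeD43 differed from WT by -0.04 ± 0.13 (SE) on the log2 scale, with an interval of 0.795- to 1.19-fold (adjusted p = 0.999, limma). Of the Zeb2 exons, 3.27% are shared with genes of the opposite strand.

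Twist1 encodes a basic helix-loop-helix factor of head and limb mesenchyme and somite derivatives, and lies on chromosome 12 from 33957671 to 33959829. It was at 10.3, 12.4 and 12.9 RPKM in WT and at 13, 7.79 and 10.6 RPKM in MommeD43. MommeD43 held both extremes, its replicate 2 standing lowest and its replicate 1 just above the highest WT library. Its log2 fold change, -0.21 ± 0.18 (SE), was the largest in size of the 10 genes, with an interval of 0.654- to 1.15-fold (adjusted p = 0.999, limma). It was -0.01 without MommeD43 replicate 2 and -0.38 without MommeD43 replicate 1.

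Vim encodes vimentin, the intermediate filament protein of mesenchymal cells, and lies on chromosome 2 from 13573927 to 13582826. It was at 31.9, 48.4 and 42.1 RPKM in WT replicates 1, 2 and 3 and at 47.8, 43.5 and 44.1 RPKM in MommeD43 replicates 1, 2 and 3. WT replicate 1 stood below the other 5 libraries, which lay between 42.1 and 48.4 RPKM. The means were 40.8 ± 8.33 and 45.1 ± 2.35 RPKM (SD, n = 3 each). MommeD43 was higher by 0.17 ± 0.14 on the log2 scale (SE, limma adjusted p = 0.999). Leaving out WT replicate 1 gave -0.00041, and leaving out WT replicate 2 gave 0.30.

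**Figure D3:**
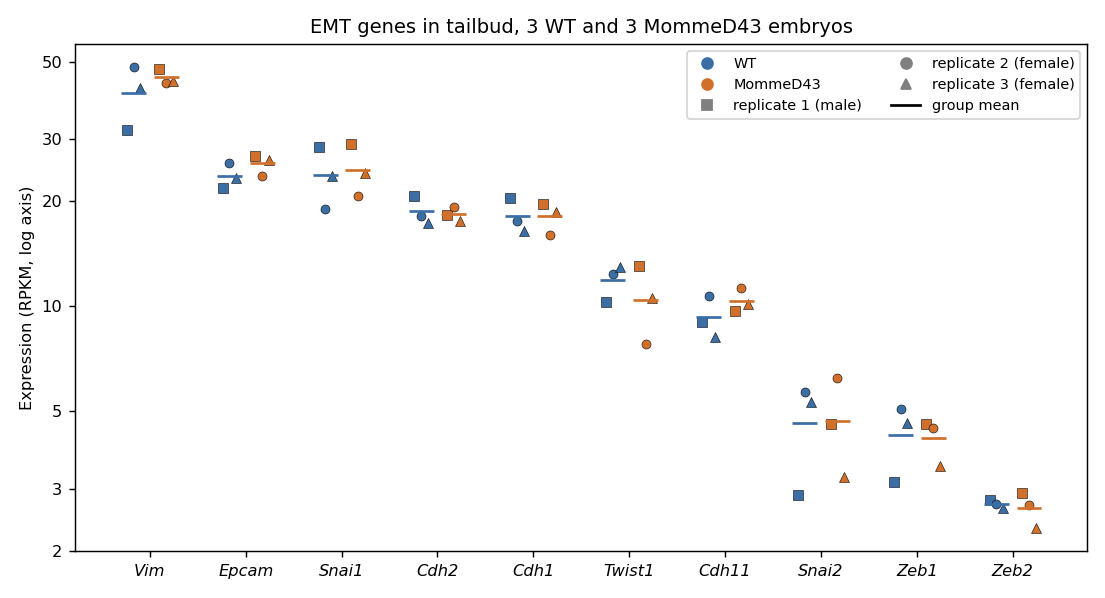
Expression (RPKM, log axis) of the EMT genes in each library, ordered by mean level, with blue for WT, orange for MommeD43, squares for males and lines for group means. The points of both genotypes overlap for every gene, and Vim, at 31.9 to 48.4 RPKM, lies above the other 9 genes.

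The order of the 10 genes by level, per exon length and over all 6 libraries, ran from Vim to Zeb2. Vim, at 42.95 ± 5.97 RPKM (SD, n = 6), was above Epcam in 6 of 6 libraries with no overlap of their ranges. Epcam (24.6 ± 2.03 RPKM) and Snai1 (24.2 ± 4.09 RPKM) could not be ordered, since Epcam was above in 3 of 6 libraries. Cdh2 (18.5 ± 1.26 RPKM) and Cdh1 (18.1 ± 1.76 RPKM) came next, and their difference was also within the spread, with Cdh2 above in 4 of 6. Twist1 (11.2 ± 2.03 RPKM) and Cdh11 (9.83 ± 1.13 RPKM) followed with overlapping ranges, Twist1 above in 5 of 6. Snai2 (4.67 ± 1.35 RPKM) and Zeb1 (4.24 ± 0.754 RPKM) overlapped as well, with Snai2 above in 3 of 6. Zeb2, at 2.68 ± 0.1998 RPKM, was below Zeb1 in 6 of 6 libraries, on an exon length of 19942 bases for Zeb2 and 10266 bases for Zeb1. All annotated exons of a gene enter its length, so that long exons that tailbud cells do not use lower the RPKM. Within the SNAIL pair, Snai1 was above Snai2 in each library, by a log2 ratio of 2.395 ± 0.81 in WT and 2.42 ± 0.62 in MommeD43 (SD, n = 3 each).

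With both genotypes pooled, Snai2, Zeb1, Twist1, Snai1 and Vim varied more between embryos of the same genotype than a typical gene did. For Vim this came from WT, with an SD of 0.307 against a median of 0.133. In MommeD43 its SD was 0.074, below the median of 0.126. The SD of log2 RPKM within genotypes was 0.51 for Snai2, 0.30 for Zeb1, 0.29 for Twist1, 0.27 for Snai1 and 0.22 for Vim. These compare with a median of 0.14 over all genes tested, and 7 of the 10 genes were above that median. Cdh1 and Cdh11 were close to it, both at 0.16, and Cdh2, Epcam and Zeb2 were below it, at 0.11, 0.11 and 0.12. WT replicate 1 was the lowest of the 6 libraries for Epcam, Snai2, Zeb1 and Vim and the highest for Cdh1 and Cdh2. MommeD43 replicate 1 was the highest for Epcam, Snai1, Zeb2 and Twist1. The SD was smaller in MommeD43 than in WT for 8 of the 10 genes, and for 51.4% of all genes tested.

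WT replicate 1 was also at the end of the range for several marker sums. It had the highest sum of presomitic mesoderm markers (730.3 RPKM, with 516 to 641 in the other libraries) and the lowest sums of blood (8.96 RPKM), endothelium (42.8 RPKM, with 45.6 to 61.7 in the others) and hindgut markers (17.04 RPKM, with 18.9 to 23.6 in the others). Single markers did not all follow these sums. In WT replicate 1 the presomitic marker Lfng was at its lowest (8.13 RPKM) and the hindgut marker Foxa3 at its highest (1.89 RPKM). The endothelial marker Etv2, at 19.2 RPKM there, was near its highest. MommeD43 replicate 3, the other library with low Snai2 and Zeb1, had the second lowest sums of blood (22.8 RPKM) and endothelium markers (45.6 RPKM). Single endothelial markers there were mixed. Etv2 (13.3 RPKM) and Cldn5 (2.05 RPKM) were at their lowest, but Cdh5 (9.24 RPKM) and Tie1 (3.54 RPKM) were at their second highest. The part of other tissues in the levels of the EMT genes was not tested.

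**Figure D4:**
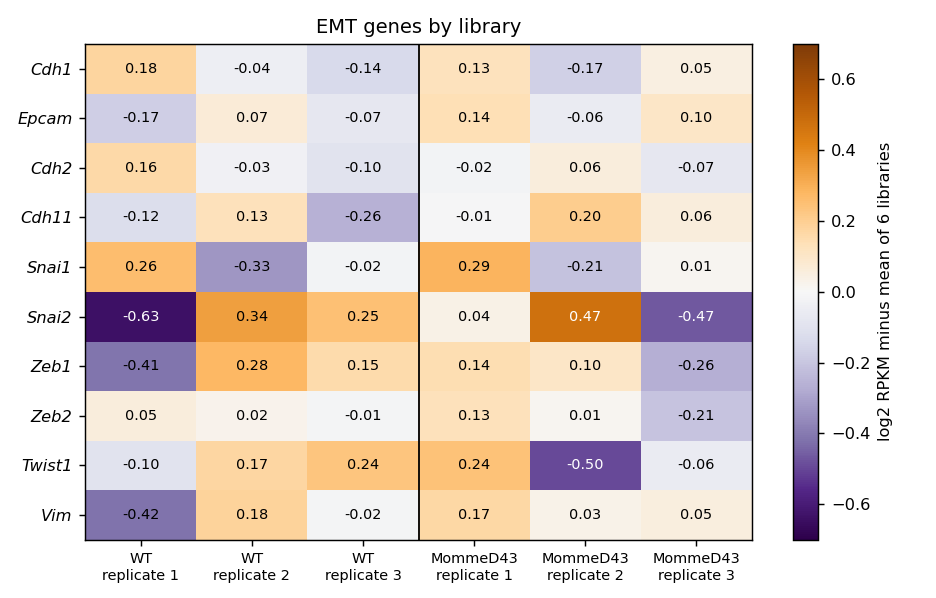
Difference of each library from the mean of all 6 (log2 RPKM, colour and number) for each EMT gene, with WT on the left. Snai2, Zeb1 and Vim are low in WT replicate 1, at -0.63, -0.41 and -0.42, while Cdh1 and Cdh2 are high there, at 0.18 and 0.16.

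The genotype effect was next compared between the male pair and the females. Vim was higher in the MommeD43 male than in the WT male by 0.59 on the log2 scale, and differed by -0.04 between the MommeD43 and WT females. The difference between these effects was 0.63 ± 0.13 (SE, unadjusted p = 0.00249, adjusted p = 0.181, limma). For Zeb1 the effects were 0.56 in the males and -0.30 in the females (adjusted p = 0.342), and for Twist1 they were 0.34 and -0.48 (adjusted p = 0.328). Snai2 had 0.67 and -0.29, with an adjusted p of 0.51. By this interaction test in limma, 0 of the 10 genes passed an adjusted p of 0.05, against 0.272% of all genes (37), and 3 had an unadjusted p under 0.05, against 10.8% of all genes (1471). The signs were opposite in males and females for 7 of the 10 genes. For Epcam, Cdh11 and Snai1 the sign was the same, with 0.31 in the males and 0.02 in the females for Epcam, 0.11 and 0.20 for Cdh11, and 0.03 and 0.07 for Snai1. The residual spread in this test came from the 4 females, since a single male per genotype has none. The males were assumed to vary as the females do. The spread of each gene was also drawn by limma toward that of genes at a similar level. Vim, Snai2 and Zeb1 were lowest of all libraries in WT replicate 1, the WT male. With 1 male per genotype, both from the same mother, sex, mother and the single embryo cannot be told apart.

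Relations among the genes across the 6 libraries were computed for 3 pairs. Cdh1 and its repressor Snai1 had a Pearson r of 0.777 (exact permutation p = 0.075, two-sided, Benjamini-Hochberg adjusted p = 0.225) and a Spearman rho of 0.771 (exact permutation p = 0.103, adjusted p = 0.308). Without WT replicate 1 and MommeD43 replicate 2, the libraries farthest from the median of Cdh1, r was 0.613. Cdh1 and Cdh2 had r = 0.421 (exact permutation p = 0.41, adjusted 0.615) and rho = 0.371 (exact permutation p = 0.497, adjusted 0.746), and r = 0.663 without those libraries. Cdh1 and Epcam, the epithelial pair, had r = 0.0908 (exact permutation p = 0.857, adjusted 0.857) and rho = 0.0857 (exact permutation p = 0.919, adjusted 0.919). Without the same libraries r was 0.944, so that the value for this pair rests on those libraries. On deviations from genotype means r was 0.103 over all 6 libraries and 0.416 without the same libraries. Repressors of Cdh1 did not go one way: beside 0.777 for Snai1, r with Cdh1 was -0.812 for Snai2, -0.613 for Zeb1 and 0.185 for Zeb2, given as a description with no test. Of the 3 pairs tested, no relation passed 0.05, and the libraries share groups and differ in depth.

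The genes most like Cdh1, Cdh11 and Snai1 in their log2 RPKM over the 6 libraries were sought among 10680 others with a mean of at least 1 RPKM. For Cdh1 they were Pcnx3, Tmem131, Arhgef1, Slc19a1 and Furin, with a Pearson r of 0.985 to 0.992. For Cdh11 they were Tra2a, Ror1, Alg2, Pim3 and Selenos (0.972 to 0.982), and for Snai1 they were Ddx21, Mfsd13a, Srpk1, 5031425E22Rik and Larp1 (0.98 to 0.988). None of the 10 EMT genes was among them. These values are the highest of a large number over 6 points, and are a description.

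Other genes of the pathway were read from 6 lists. Of 104 genes listed, 99 were tested, and 0 passed an adjusted p of 0.05 in either direction (limma). At an unadjusted p under 0.05 there were 3, and 4 had groups that did not overlap, or 4.04%, against 7.08% of all genes. The share of genes with a higher level in MommeD43, 51% over all genes tested, moved in several lists with the libraries used.

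The list of epithelial junctions and polarity had 20 genes tested, 11 above and 9 below WT, with a median log2 fold change of 0.02. In females 6 were above, and without WT replicate 1 there were 7. Krt18, a keratin of simple epithelia, was at 119, 166 and 155 RPKM in WT and at 157, 164 and 182 RPKM in MommeD43, a log2 fold change of 0.21 ± 0.12 (SE). F11r, a tight junction adhesion molecule, had 0.14 ± 0.07, with WT replicate 1 among the MommeD43 libraries. The tight junction genes Tjp3 and Cldn7 had -0.32 ± 0.22 and -0.16 ± 0.13.

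Of 14 regulators of epithelial identity, 9 were higher and 5 lower, with a median of 0.03, and the higher were 9 in females and 10 without WT replicate 1. Rab25, a small GTPase of epithelial vesicle transport, was at 3.71, 4.10 and 4.14 RPKM in WT and at 2.95, 2.92 and 3.52 RPKM in MommeD43. Its groups did not overlap, and the log2 fold change was -0.35 ± 0.12 (SE, unadjusted p = 0.016, adjusted p = 0.999, limma), with -0.36 in the females and -0.33 in the males. The others named in this list were Elf3 (0.29 ± 0.19), Prss8 (0.14 ± 0.11) and Ovol1 (-0.38 ± 0.28).

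Among 10 catenins and other classical cadherins, 3 were higher and 7 lower, with a median of -0.06. In females, and also without WT replicate 1, 6 were higher. Ctnnb1, which encodes beta-catenin, the partner of E-cadherin at junctions, had a log2 fold change of -0.07 ± 0.05 (SE), from 236 ± 6.69 RPKM in WT and 225 ± 8.89 RPKM in MommeD43 (SD, n = 3 each). Ctnnd1, which encodes p120 catenin, had -0.06 ± 0.05 with groups that did not overlap, but 61.2% of its exons are shared with genes of that strand, so that its value is uncertain. The endothelial cadherin Cdh5 had 0.44 ± 0.22, and the low gene Ctnna2 had 0.30 ± 0.35.

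Of 19 signals and effectors of gastrulation EMT, 11 were higher and 8 lower, with a median of 0.02, and the higher were 15 in females and 13 without WT replicate 1. Crb2, a polarity protein needed for cells to leave the streak, had a log2 fold change of 0.13 ± 0.08, and Epb41l5, which has a role in the same step, had -0.11 ± 0.08. Tgfbr1, a receptor of transforming growth factor beta, had -0.05 ± 0.09. Mesp1, a factor of nascent mesoderm, had 1.01 ± 0.99, with 2.42, 0.598 and 0.142 RPKM in WT and 0.930, 0.580 and 3.12 RPKM in MommeD43, so that its libraries overlapped and were widely spread in both groups.

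The 14 cofactors and turnover factors of SNAIL and ZEB proteins differed little, with log2 fold changes from -0.07 to 0.05, and 3 were higher and 11 lower, with 4 higher in females and 4 without WT replicate 1. They included Hdac1 (0.05 ± 0.06), the corepressor Ctbp2 (0.02 ± 0.07), and the kinases Gsk3b (-0.07 ± 0.08) and Csnk1a1 (-0.04 ± 0.05), which mark SNAIL for breakdown.

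Of 22 genes of the mesenchymal state, 18 were higher and 4 lower in MommeD43, with a median of 0.10, and 0 passed the adjusted test. The split rested on WT replicate 1: without it 11 of 22 were higher, with a median of 0.01, and in females 11 of 22 were higher, with a median of -0.01. Sparc, a matrix glycoprotein, was at 23.7, 31.3 and 31.2 RPKM in WT and at 37.4, 35.9 and 34.9 RPKM in MommeD43. Its groups did not overlap, and the log2 fold change was 0.34 ± 0.11 (SE, unadjusted p = 0.013, adjusted p = 0.999, limma). Tagln, a smooth muscle actin-binding protein, had 1.11 ± 0.45, with overlapping groups and genes on the other strand over 67.9% of its exons. Tcf4, an E-protein, had -0.12 ± 0.10 with groups that did not overlap, and Twist2 had -0.14 ± 0.20. WT replicate 1 was the lowest library for Sparc and Tagln, as it was for Vim.

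**Figure D5:**
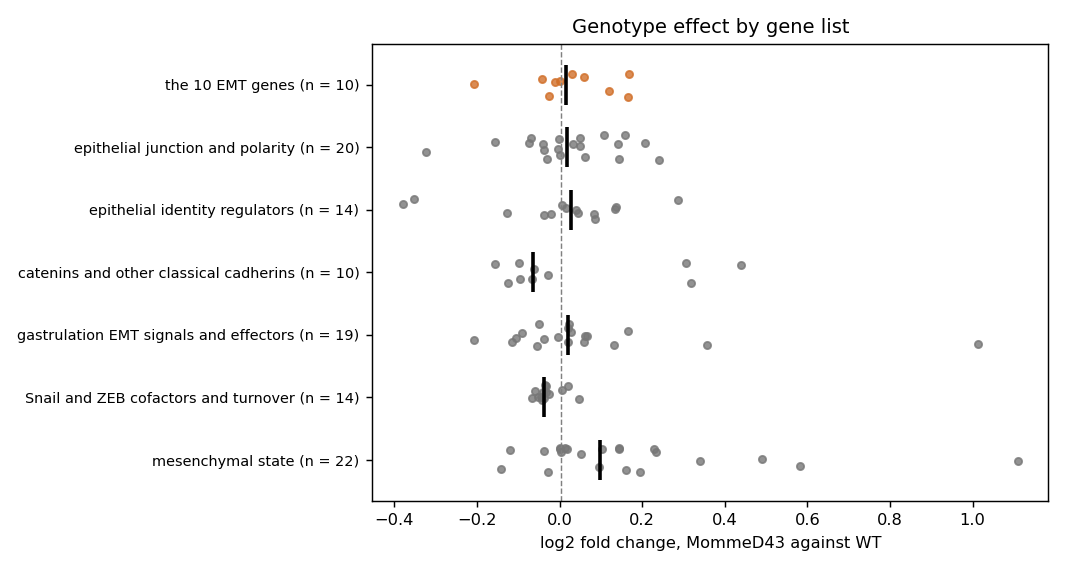
Log2 fold change of MommeD43 against WT for the genes of each list (points) with its median (black bar), beside the median of all genes tested (dashed line). The medians lie between -0.06 and 0.10.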

How the data were processed

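RNA from tailbud tissue was made into stranded polyA libraries. The labels name Trim Galore 0.4.4 for trimming and HISAT2 2.0.5 for mapping to GRCm38.p6, and the study's methods name SeqMonk for quantification. The authors deposited log2 RPKM, reads per kilobase of exon scaled to the size of the library, and their mean columns were not used. Groups, sexes and mothers came from the labels.

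Of 35591 rows, 35555 matched GENCODE M21 by identifier, which gave exon lengths and the same coordinates for 99.4% of rows. Reads were recovered from RPKM, exon length and the library total, set by genes without a read (0.9 read). Of 63535 values below 500 reads, 98.8% were whole within 0.02. Kept genes reached, in 3 libraries or more, the depth-scaled count of 10 reads in a median library, with 15 reads in total. Of these, 13617 were autosomal.

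The test was limma 3.58.1 under R 4.3.3, on log2 RPKM with no pseudocount and a variance trend, with p-values adjusted by Benjamini-Hochberg over all autosomal genes. The interaction fit had a mean for each sex and genotype. The genotype fit was tested on simulated reads, in which all genes had the same spread, unlike in these data. It recovered 70% of 200 genes changed 1.5-fold, with 3 false calls. For 200 genes changed 2-fold it recovered 88.5%, with 7 false calls. For genes with a wide spread, such as Snai2, these shares do not hold. Tables were made in Python 3.11.15 (pandas 2.3.3, numpy 2.4.6), permutations in scipy 1.17.1 and plots in matplotlib 3.10.9.

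The EMT genes and the lists were chosen with earlier results of these data known. Genes were named by rule: all 10 EMT genes, listed genes past the threshold or else the 2 of lowest p per direction and list, and the 5 genes most like Cdh1, Cdh11 and Snai1. Embryos were separate samples, and the mean chi-square per gene between libraries, near 1 for sampling noise alone, was 4.7 to 24.9. Alternatives were other scaling, filters, pseudocounts, voom, sex or replicate number in the model, females alone and each library left out.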

Additional observations from a re-analysis of the deposited data

Results flagged for a closer look

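For 3 of the 99 listed pathway genes, the interaction of sex and genotype had an adjusted p under 0.05 (limma), against 0.272% of all genes tested. Each genotype had 1 male, so that the residual spread in this test came from the females alone. It was drawn by limma toward that of genes at a similar level. The male effects rest on 1 embryo per genotype. All 3, named after their values were seen, act in tailbud mesoderm formation. Wnt3a, the ligand that maintains tailbud progenitors, was at 53.1 RPKM in WT replicate 1 and at 25.9 to 37.6 RPKM in the other 5 libraries. MommeD43 minus WT was -0.997 for the males and 0.36 for the females on the log2 scale, a difference of -1.36 (adjusted p = 0.049). The differences were -0.91 for T and -1.065 for Msgn1 (adjusted p = 0.028 and 0.026), and WT replicate 1 was the highest library for both. For Msgn1, MommeD43 replicate 1, the MommeD43 male, was also the lowest library, at 76.2 RPKM beside 123 RPKM in WT replicate 1. WT replicate 1 had the highest sum of presomitic mesoderm markers, a list that holds these 3 genes. Sex, mother and the single embryo cannot be told apart here, as the males shared a mother and the females did not.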

How the results depend on the processing

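The count of EMT genes past an adjusted p of 0.05 was 0 in each of the 16 alternatives, and so was that of the listed pathway genes. Over all autosomal genes it was 0 in each except females alone (2 against 2), where it was 10, with 1188 at an unadjusted p under 0.05, and the cause was not tested. Of 160 log2 fold changes of EMT genes under alternatives, 140 kept their sign, and Epcam, Cdh11 and Twist1 kept it in all. Signs turned for Cdh2 (0.0266) and Snai2 (-0.0329) with voom, and for Cdh2 (0.0545), Snai2 (-0.291) and Vim (-0.0428) in females alone. With 1 library left out, values ran from -0.0663 to 0.0908 for Cdh1, -0.0804 to 0.0504 for Cdh2, -0.0917 to 0.203 for Snai1, -0.28 to 0.27 for Snai2, -0.22 to 0.12 for Zeb1, -0.117 to 0.0491 for Zeb2 and -0.00041 to 0.30 for Vim. The replicate block called 0 EMT genes and 0 autosomal genes (307 by unadjusted p). Between libraries of the same replicate number, deviations from group means correlated by -0.03, 0.17 and -0.17 for numbers 1, 2 and 3. With 3 libraries per group, such values cannot settle whether the numbers pair the embryos. The males, number 1 of each genotype, shared a mother, and the paper describes the embryos as somite-paired. The smallest unadjusted p with a library left out was 0.0279 for Cdh11, 0.0361 for Vim and 0.0425 for Twist1. The interaction called 0 EMT genes under each alternative run for it, and without a read filter it called 111 genes in all. The difference in the Cdh2 to Cdh1 ratio ran from -0.146 without MommeD43 replicate 2, the library that stood apart, to 0.0392 without MommeD43 replicate 1. None of the 3 correlations passed 0.05 under the alternatives run. Snai2, with 86 reads in its lowest library, had the least depth.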
